A study of Schizosaccharomyces pombe with 7 samples.

Results

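The probes described here are the 4 array probes of ura4, the fission yeast gene for orotidine 5'-phosphate decarboxylase of uracil synthesis, out of 41551 probes on a tiling array of the Schizosaccharomyces pombe genome. They were taken by name as the chromosome 3 probes starting at 115500, 115800, 116100 and 116400 in the array's own coordinates, for which no genome build was given. They were set against the 10 probes within 3 kb below them, the 10 probes within 3 kb above them, and 83 probes of a chromosome 2 region that holds the mating-type genes mat1-Mc and mat3-Mc by gene placement. ura4 (SPCC330.05c) was selected on its measured log2 ratios, which were high in WT and lower in the other strains, so its own values are given as a description, without a test. A probe hybridises with DNA from every copy of its sequence, so the 4 probes report all ura4 copies in a strain together and do not place them on a chromosome.

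ChIP of histone H3 dimethylated at lysine 9 (H3K9me2) was compared with whole-cell extract on 2 arrays of fft3∆ cells (series 2 and 3), 1 array of UV21 cells (series 1) and 3 arrays of WT cells (series 1, 2 and 3). The labels give fft3∆, UV21 and WT as the genotypes and do not say what UV21 is; they record neither mating type nor marker genes for any strain. All cells grew in rich medium at 30 °C and were fixed in 3% paraformaldehyde. A further single array measured GFP ChIP of Fft3-GFP cells, labelled WT, which had been held at 18 °C for 6 h and were also treated with 10 mM dimethyl adipimidate. No label says whether the arrays of a group came from separate cultures, so the spread between them may be technical or may reflect different cells. Near mat3-Mc the extract signal was almost absent in fft3∆ series 2 and WT series 2 only, as given below. The arrays of a group may therefore not share 1 strain background, which was not tested. UV21 and Fft3-GFP had no replicate.

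H3K9me2 is the mark of silent heterochromatin in fission yeast. It is placed by the methyltransferase Clr4 and bound by chromodomain proteins such as Swi6, and it covers the pericentromeres, the subtelomeres and the silent mating-type region. Fft3 is a chromatin remodeller of the Fun30 group of the Snf2 family. ura4 at its native place is an active gene, and copies of it are widely used in fission yeast as markers for gene deletion and as reporters of silencing.

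The values are the log2 ratio of processed ChIP signal (Cy5) to processed whole-cell extract signal (Cy3), minus the array's median, so that 0 is the level of the median probe. The 12 probes of the deleted gene fft3 had a median Cy3 signal of 0.298% (fft3∆ series 2) and 0.379% (fft3∆ series 3) of the array's median probe, against 74.5% in UV21 and 54.0% to 80.1% in WT. It was 82.7% on the Fft3-GFP array. WT series 3 stood apart technically: 12.31% of its features were marked non-uniform, against at most 4.66% on any other array, and it alone held saturated spots.

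At ura4 the 3 WT arrays carried an H3K9me2 signal among the highest on the array, 1 fft3∆ array was close to them, and the other fft3∆ array and UV21 were far below. The mean log2 ratio of the 4 probes was 5.15 in fft3∆ series 2 and 2.12 in fft3∆ series 3, 0.85 in UV21, and 5.61, 5.80 and 6.66 in WT series 1, 2 and 3. This gives 3.63 ± 2.14 in fft3∆ (SD, n = 2) against 6.02 ± 0.56 in WT (SD, n = 3), with UV21 at 0.85 (n = 1). Both fft3∆ values and the UV21 value lay below all 3 WT values, but the 2 fft3∆ arrays differed from each other by more than fft3∆ series 2 differed from any WT array. In rank, 0.662% of the usable probes of fft3∆ series 2 were at or above the ura4 mean, against 2.06% in fft3∆ series 3, 10.4% in UV21 and 0.567% to 1.19% in WT.

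Within a series the size of the difference varied widely. In series 2, ura4 in fft3∆ was 1.57-fold lower than in WT, a log2 difference of −0.65. In series 3 it was at least 23.3-fold lower, a log2 difference of −4.54 that is a bound because the ChIP signal of the WT array was saturated at all 4 probes. In series 1, ura4 in UV21 was 27.2-fold lower than in WT, a log2 difference of −4.77.

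**Figure D1:**
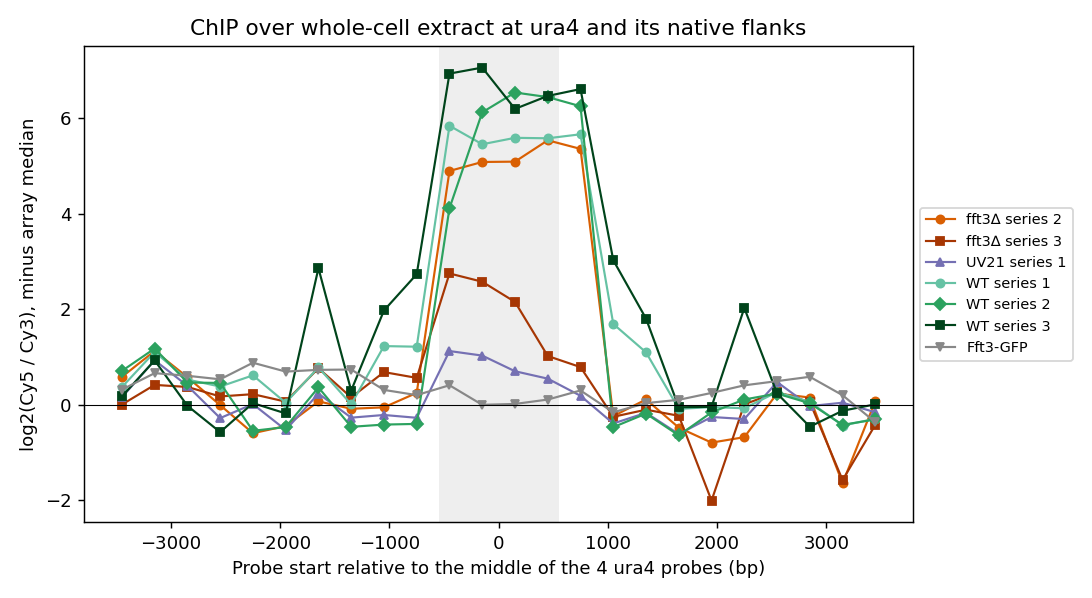
Log2 of Cy5 over Cy3 (y axis, minus the array median) at the 4 ura4 probes (shaded) and the 20 flank probes, by distance in bp of the probe start from the middle of ura4 (x axis), with 1 line per array. WT and fft3∆ series 2 form a plateau over ura4 and the next probe above, fft3∆ series 3 and UV21 decline across it from 2.75 and 1.12 at the first probe, and Fft3-GFP stays near 0.

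Probe by probe, the plateau was flat in some arrays and sloped in others. At the first probe, starting at 115500, the log2 ratio was 4.89 and 2.75 in fft3∆ series 2 and 3, 1.12 in UV21, and 5.84, 4.11 and 6.93 in WT series 1, 2 and 3. At the second, starting at 115800, it was 5.08 and 2.57 in fft3∆, 1.02 in UV21, and 5.45, 6.12 and 7.06 in WT. Here the fft3∆ and UV21 values were below all WT values, whereas at the first probe fft3∆ series 2 was above WT series 2.

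At the third probe, starting at 116100, the log2 ratio was 5.09 and 2.15 in fft3∆, 0.70 in UV21, and 5.59, 6.54 and 6.19 in WT. At the fourth, starting at 116400, it was 5.53 and 1.02 in fft3∆, 0.54 in UV21, and 5.58, 6.44 and 6.46 in WT. From the first to the fourth probe fft3∆ series 3 and UV21 stepped down at every probe, while fft3∆ series 2 stepped up at every probe. In WT series 1 the 4 probes had an SD of 0.16 among themselves, and in WT series 2 an SD of 1.14 that came from the first probe.

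The signal did not end at the last probe chosen. The next probe above, starting at 116700, had a log2 ratio of 5.35 and 0.78 in fft3∆ series 2 and 3, 0.18 in UV21, and 5.66, 6.25 and 6.61 in WT series 1, 2 and 3. Its values were close to those of the plateau's last probe on every H3K9me2 array, and it was left out of the flank values because it was non-uniform on UV21 and WT series 3. The next probe below, starting at 115200, had 0.24 and 0.56 in fft3∆, −0.28 in UV21, and 1.21, −0.41 and 2.73 in WT. The high signal therefore covered 5 neighbouring probes, with a step on both sides.

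The ChIP and extract channels were read apart, since a ratio can change through either. As a geometric mean over the 4 probes, Cy5 was 1686% of the array's median probe in fft3∆ series 2 and 631.8% in fft3∆ series 3, 281.4% in UV21, and 3912%, 3076% and 2915% in WT series 1, 2 and 3. Both fft3∆ arrays and UV21 were therefore below all WT arrays in the ChIP channel itself. The WT series 3 value is a lower bound, because Cy5 was saturated there at all 4 ura4 probes and at the next probe above. No other array had a saturated ura4 probe.

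At the first probe Cy5 was 1692% and 1367% of the array's median probe in fft3∆ series 2 and 3, 477.3% in UV21, 4394%, 3447% and 2911% in WT series 1, 2 and 3, and 216.5% on the Fft3-GFP array. Cy3 there was 57.06% and 202.7% in fft3∆, 219.5% in UV21, 79.01%, 210.2% and 24.66% in WT, and 162.4% with Fft3-GFP. fft3∆ series 3 was thus close to fft3∆ series 2 in ChIP signal at this probe and well above it in extract signal.

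At the second probe Cy5 was 1529% and 813.9% in fft3∆, 251.8% in UV21, 3394%, 1848% and 2910% in WT, and 133.6% with Fft3-GFP. Cy3 was 45.26% and 136% in fft3∆, 123.7% in UV21, 79.87%, 28.02% and 22.59% in WT, and 133.2% with Fft3-GFP. The WT arrays were above all others in ChIP signal here, and all WT extract signals were below those of fft3∆ series 3 and UV21.

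At the third probe Cy5 was 2029% and 766.7% in fft3∆, 343.6% in UV21, 5617%, 4521% and 2919% in WT, and 255.1% with Fft3-GFP. Cy3 was 59.78% and 171.8% in fft3∆, 211.9% in UV21, 120.4%, 51.4% and 41.27% in WT, and 251.2% with Fft3-GFP. The order of the H3K9me2 groups in ChIP signal was that of the second probe, with fft3∆ series 2 nearest to WT.

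At the last probe Cy5 was 1539% and 186.8% in fft3∆, 151.8% in UV21, 2797%, 3109% and 2919% in WT, and 120.8% with Fft3-GFP. Cy3 was 33.27% and 91.8% in fft3∆, 104.2% in UV21, 60.35%, 37.8% and 34.2% in WT, and 111.6% with Fft3-GFP. fft3∆ series 3 was close to UV21 here in both channels, whereas at the first probe its ChIP signal was far above that of UV21.

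Cy3, the whole-cell extract channel, also differed at ura4. It was 47.6% of the array's median probe in fft3∆ series 2 and 144.4% in fft3∆ series 3, 156.5% in UV21, and 82.29%, 58.16% and 29.78% in WT series 1, 2 and 3. The Fft3-GFP array had 156.9%. The arrays with a high H3K9me2 ratio at ura4 thus had the lower extract signals, and the arrays with a low ratio had the higher ones. Cy3 is the divisor of the ratio, so this inverse order is partly built in. It did not hold at every probe, as the first probe in WT series 2 shows.

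The channels contributed unequally to each difference within a series, given here as log2 differences in percent of the array median. In series 2, fft3∆ minus WT was −0.87 in Cy5 and −0.29 in Cy3. In series 3 it was −2.21 in Cy5, where saturation of the WT array limits its size, and 2.28 in Cy3. In series 1, UV21 minus WT was −3.80 in Cy5 and 0.93 in Cy3. The part of the extract signal in the ratio differences of series 3 is thus as large as the measured part of the ChIP signal, while in series 1 most of the difference was in the ChIP channel.

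**Figure D2:**
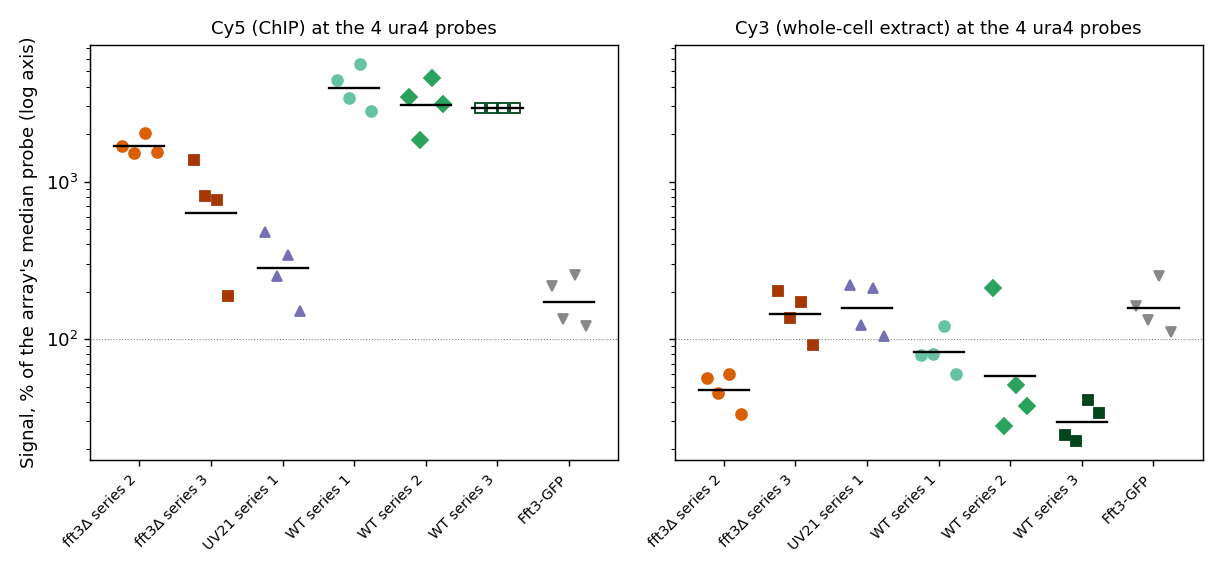
Cy5 (ChIP, left) and Cy3 (whole-cell extract, right) signal at the 4 ura4 probes of each array, in percent of the array's median probe on a log axis, with probes left to right by position and the geometric mean as a line; open squares are saturated spots. Cy5 means run from 281.4% in UV21 to 3912% in WT series 1 on the H3K9me2 arrays, and Cy3 means from 29.78% in WT series 3 to 156.5% in UV21.

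The extract signal of ura4 was also set against the 13 flank probes that lie farther out, so that a difference common to the neighbourhood cancels. Cy3 at ura4 was 0.466 times that of the outer flank in fft3∆ series 2 and 1.48 times in fft3∆ series 3, 1.89 times in UV21, and 1.01, 0.515 and 0.303 times in WT series 1, 2 and 3. It was 1.51 times on the Fft3-GFP array. Whether these ratios reflect the number of ura4 copies or the recovery and amplification of their DNA was not tested, and different probes do not give equal signals from equal DNA.

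The first ura4 probe in WT series 2 was the exception within its array. Its Cy3 signal was 210.2% of the array median, against 28.02% to 51.4% at the other 3 probes, while its Cy5 signal of 3447% lay within the 1848% to 4521% of those probes. Without this probe, ura4 in series 2 was 2.19-fold lower in fft3∆ than in WT, with a log2 ratio of 5.23 in fft3∆ and 6.36 in WT. In series 3 ura4 was then at least 25.2-fold lower in fft3∆, and in series 1 UV21 was 27.5-fold lower than WT.

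Fft3-GFP showed no high signal at ura4. Its log2 ratio at the 4 probes was 0.40, −0.01, 0.01 and 0.10, with a mean of 0.13, and 30.6% of usable probes were at or above that mean. Its Cy5 and Cy3 signals at ura4 were both above the median probe, at 172.8% and 156.9%. The 9 usable probes of the lower flank averaged 0.55 on the same array and the 7 of the upper flank 0.15, so ura4 was not above its surroundings. With 1 array and no untagged control, no test was made.

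The native flanks beyond the plateau were low. Over all 10 probes of the lower flank the log2 ratio ran from −0.60 to 1.12 in fft3∆ series 2 and −0.53 to 0.93 in UV21, and reached 0.76 in fft3∆ series 3. Its highest value on any array was 2.86, at the probe starting at 114300 in WT series 3, where Cy3 was saturated. Its 9 usable probes had a mean log2 ratio of 0.03 and 0.33 in fft3∆ series 2 and 3, −0.09 in UV21, and 0.57, −0.04 and 0.81 in WT series 1, 2 and 3. This gives 0.18 ± 0.21 in fft3∆ (SD, n = 2) against 0.45 ± 0.44 in WT (SD, n = 3), and the groups overlapped. The difference of −0.27 had p = 0.6 in an exact 2-sided permutation test over arrays, which cannot go below 0.2 with 2 arrays against 3. Within the 2 scanner extraction protocols it was −0.24 (series 1 and 2) and −0.48 (series 3).

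The upper flank, 7 of whose 10 probes were usable, had a mean log2 ratio of −0.39 and −0.60 in fft3∆ series 2 and 3, −0.14 in UV21, and 0.16, −0.25 and 0.37 in WT series 1, 2 and 3. Here both fft3∆ arrays lay below all 3 WT arrays, with −0.49 ± 0.15 in fft3∆ (SD, n = 2) against 0.09 ± 0.32 in WT (SD, n = 3). The difference of −0.59 had p = 0.2 in the exact 2-sided permutation test, the smallest value it can give. Within the extraction protocols it was −0.34 (series 1 and 2) and −0.97 (series 3).

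By limma over 33704 usable probes with Benjamini-Hochberg adjustment, 0 of the 9 lower and 0 of the 7 upper flank probes passed the threshold of 0.05 in fft3∆ minus WT, in which 2.11% of all probes passed. At an unadjusted p under 0.05 there were 0 of 9 and 2 of 7, where 17.2% of all probes passed. In UV21 minus WT, which shares the WT arrays with fft3∆ minus WT, 0 flank probes passed, as did 0% of all probes, and 0 of 16 were under an unadjusted 0.05, where 2.88% of all probes were.

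The 2 upper flank probes were those starting at 117900 and 119100, and both were low in the 2 fft3∆ arrays only. At 119100 the log2 ratio was −1.65 and −1.58 in fft3∆ series 2 and 3, 0.04 in UV21, and −0.44, −0.43 and −0.13 in WT series 1, 2 and 3. The groups did not overlap, and the difference of −1.28 ± 0.25 (SE) had a limma adjusted p of 0.0517. At 117900 it was −0.80 and −2.01 in fft3∆, −0.26 in UV21, and −0.05, −0.16 and −0.05 in WT, with a limma adjusted p of 0.130. Without WT series 1, 2 or 3 in turn 0 of the 7 upper flank probes passed, where 0%, 0.828% and 0% of all probes did. The 0 did not hold without fft3∆ series 2, which leaves 1 fft3∆ array and raised the calls over all probes as well. It held without fft3∆ series 3. The mean difference of the upper flank was −0.69 without fft3∆ series 2 and −0.48 without fft3∆ series 3.

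Next to the plateau, 2 of the 3 WT arrays had a raised shoulder. The 2 probes next below ura4 averaged 0.09 and 0.62 in fft3∆ series 2 and 3, −0.25 in UV21, and 1.22, −0.41 and 2.35 in WT series 1, 2 and 3. The 2 probes that follow the plateau above, starting at 117000 and 117300, averaged −0.07 and −0.18 in fft3∆, −0.28 in UV21, and 1.39, −0.33 and 2.41 in WT. On both sides WT series 1 and 3 were raised while WT series 2, with a plateau as high as that of WT series 1, was at or below the array median.

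The shoulder was present in the ChIP channel. At 117000, Cy5 was 31.8% and 42.06% of the array median in fft3∆ series 2 and 3, 49.18% in UV21, and 112.1%, 27.29% and 252.2% in WT series 1, 2 and 3, with Cy3 between 32.08% and 64.75% on these 6 arrays. WT series 1 and 3 were the high ones, and their Cy3 there was the lowest. The limma difference at 117000 was −1.66 ± 0.86 (SE) for fft3∆ minus WT, with an adjusted p of 0.382. The 13 outer flank probes averaged −0.19 to −0.17 in fft3∆, −0.07 in UV21 and −0.06 to 0.16 in WT.

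In the chromosome 2 region around the mating-type genes, both fft3∆ arrays and UV21 were again below WT, and the 2 fft3∆ arrays again differed from each other. The mean log2 ratio of its 77 usable probes, of 83, was 2.36 and 0.06 in fft3∆ series 2 and 3, 0.32 in UV21, and 3.11, 3.15 and 3.73 in WT series 1, 2 and 3. This gives 1.21 ± 1.62 in fft3∆ (SD, n = 2) against 3.33 ± 0.35 in WT (SD, n = 3), and no fft3∆ or UV21 array reached a WT array. The difference of −2.12 had p = 0.2 in the exact 2-sided permutation test over arrays, the smallest possible value. The region was chosen with its values known, so this p and the counts that follow describe these arrays and are not independent evidence. Within the extraction protocols it was −0.78 (series 1 and 2) and −3.67 (series 3).

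By limma at the 0.05 threshold, 4 of the 77 probes fell in fft3∆ and 0 rose, where 2.07% of all probes were lower and 0.0386% higher. At an unadjusted p under 0.05, 74 of 77 passed, against 17.2% of all probes. The median difference over the region's usable probes was −1.88, against −0.10 over all usable probes. The 4 called probes started at 2119800, 2121900, 2122800 and 2130000, where the WT mean was 1.90 to 2.40, so none lay in a stretch that was high in WT. Without WT series 1, 2 or 3 in turn 0 of the 77 passed, where 0%, 0.828% and 0% of all probes did. Without fft3∆ series 2, 69 of the 77 were lower (9.32% of all probes), and without fft3∆ series 3 there was 1 (2.02% of all probes). With the extraction protocol as a block there was also 1 (1.33% of all probes). For UV21 minus WT 0 of 77 passed (0% of all probes), and 73 of 77 were under an unadjusted 0.05 (2.88% of all probes). The median difference was −2.44. The 0 held without WT series 1, 2 or 3 in turn. It did not hold with 1 fft3∆ array left out, where the share over all probes also rose above 0%.

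Within this region 24 usable probes had a WT mean above 4, a level set after the data were seen. Both ura4 and these probes were chosen for high WT values, so their closeness in WT is given as a description only. Their mean log2 ratio was 4.93 and 0.30 in fft3∆ series 2 and 3, 0.53 in UV21, and 5.68, 5.40 and 6.43 in WT series 1, 2 and 3. ura4 minus these probes was 0.21 and 1.82 in fft3∆, 0.31 in UV21, and −0.07, 0.40 and 0.23 in WT. On fft3∆ series 3 alone ura4 and these probes were more than 1 log2 unit apart, since ura4 kept 2.12 where the region's high probes were close to the array median. In the Fft3-GFP array the same difference was −0.58.

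**Figure D3:**
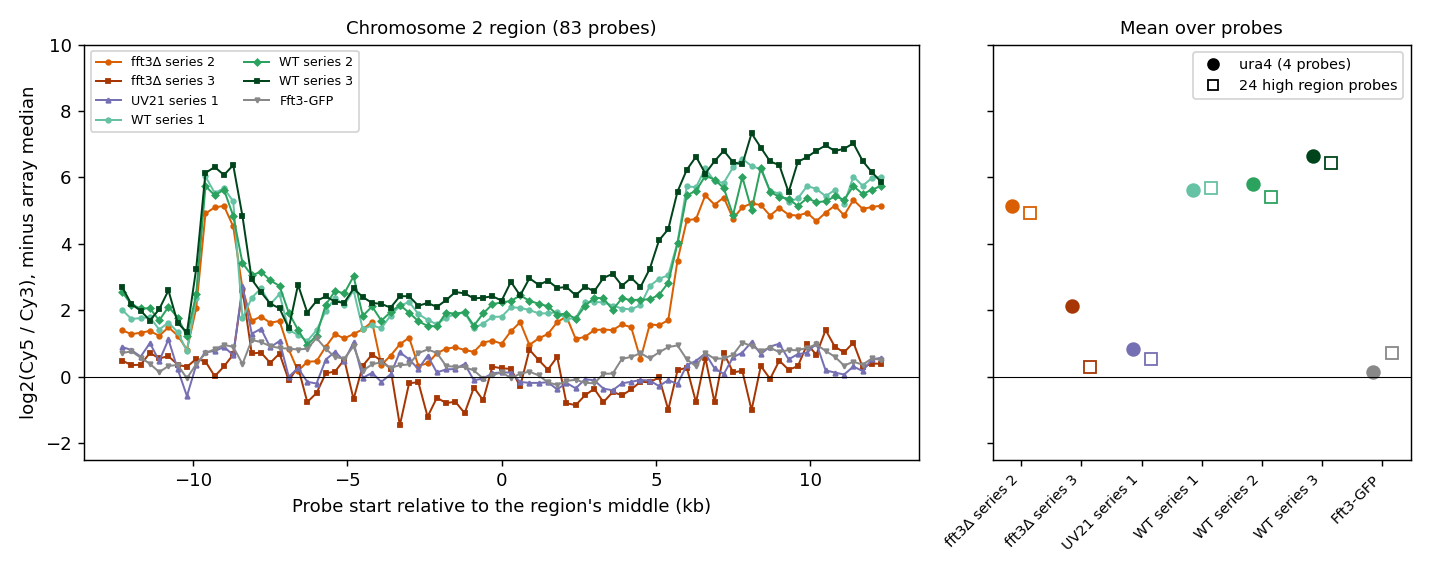
Left, log2 ratio (minus the array median) of the 83 probes of the chromosome 2 region by distance in kb from its middle, 1 line per array; right, the array means of the 4 ura4 probes (filled circles) and of the 24 region probes with a WT mean above 4 (open squares). In WT and fft3∆ series 2 both are near 5 to 6.7, in UV21 both are below 1, and in fft3∆ series 3 ura4 is at 2.12 and the region probes at 0.30.

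The extract channel moved in the same direction at those 24 probes. Their Cy3 relative to the outer flank of ura4 was 0.378 and 1.49 times in fft3∆ series 2 and 3, 1.63 times in UV21, and 0.879, 0.367 and 0.336 times in WT series 1, 2 and 3, with 0.907 times on the Fft3-GFP array. The order of the 6 H3K9me2 arrays was that at ura4, except that fft3∆ series 2 and WT series 2 changed places. Of the 24, 3 had almost no Cy3 on the 2 arrays of series 2. Without these 3 the values were 0.598 and 1.41 times in fft3∆, 1.7 times in UV21, and 0.898, 0.568 and 0.343 times in WT, so the order stood while both series 2 values moved by over 1.5 times. In Cy5, 21 of the 24 were saturated on WT series 3, so those WT ratios are lower bounds too.

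Single probes show the likeness and its limits. The region probe nearest to ura4 in WT mean, starting at 2131800, had a log2 ratio of 4.75 and −0.77 in fft3∆ series 2 and 3, 0.48 in UV21, and 5.71, 5.60 and 6.63 in WT series 1, 2 and 3. The highest WT mean of any region probe was 6.48, at 2133900, but its Cy3 was not above background on WT series 2 and it was not usable. Among usable probes the highest was 6.32, at 2133300. The lowest was 1.11, at 2115300, where the log2 ratio was 0.82 and 0.30 in fft3∆, −0.58 in UV21, and 0.77, 1.22 and 1.34 in WT.

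Near mat3-Mc, 4 neighbouring probes, starting at 2133000 to 2133900 had almost no extract signal in 1 fft3∆ and 1 WT array. Their Cy3 was 1.41% to 1.75% of the array median in fft3∆ series 2 and 174% to 234% in fft3∆ series 3, 75.7% to 153% in UV21, and 56.6% to 73.3% in WT series 1, 0.516% to 2.51% in WT series 2 and 12.6% to 35.9% in WT series 3. The 2 arrays of series 2 stood alone in this. No ura4 probe had such a loss: the lowest Cy3 of any ura4 probe on any array was 22.59%. The ratios at the 4 region probes in series 2 rest on a very small extract signal. The probe starting at 2118900 was under 10% on 1 array, with 8.28% in WT series 3. The probe starting at 2117100 was not above background in Cy3 on any of the 7 arrays, and it was not among the usable probes.

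The windows of 2 kb most like ura4 over the 6 H3K9me2 arrays, by root mean square difference in log2 ratio, all lay in the chromosome 2 region or on the array's separate mating-type contig. Of 6193 windows, whose median difference from ura4 was 4.91, only 8 were under 1. The nearest was 2136000 to 2137999 on chromosome 2 (0.647), followed by 4000 to 5999 on the contig (0.691). Then came the chromosome 2 window 2134000 to 2135999 (0.732), which holds probes of mat3-Mc, the silent copy of a mating-type gene. The next were 20000 to 21999 (0.747) and 22000 to 23999 (0.781) on the contig.

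In these 5 windows the log2 ratio was 4.88 to 5.11 in fft3∆ series 2 and 0.33 to 0.69 in fft3∆ series 3, against 2.12 for ura4 in that array. The contig and the chromosome 2 region may share sequence, so these windows are not independent of each other.

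The genes directly beside ura4, tam14 and new25, had no measured value. mug135 and pmp20, the second gene from ura4 on either side in the reference annotation, had a mean log2 ratio of 0.40 ± 0.14 and 0.17 ± 0.02 in fft3∆ (SD, n = 2), 0.04 and 0.22 in UV21, and 0.22 ± 0.16 and 0.06 ± 0.15 in WT (SD, n = 3). Neither passed limma's test in either comparison. Over all 4775 genes tested 6.2% passed in fft3∆ minus WT, 6.09% lower and 0.105% higher, and 0% passed for UV21.

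Of 8 listed genes of uracil synthesis and uptake, 6 were measured and 0 passed in either comparison. The 6 were ura1, whose product carries out the opening steps of the pathway, ura2 (dihydroorotase), ura3 (dihydroorotate dehydrogenase), ura5 (orotate phosphoribosyltransferase, the step before ura4), ura6 (uridylate kinase, the step after it) and fur4 (uracil permease). At an unadjusted p under 0.05 there was 1 in each comparison, where 18.8% of all genes were in fft3∆ minus WT and 4.23% in UV21 minus WT. Their WT means ran from −0.58 for ura1 to 0.51 for ura6, against 6.02 for ura4. The median difference of the 6 was −0.03 in fft3∆ minus WT and 0.11 in UV21 minus WT, against −0.08 and 0.02 over all genes.

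Among 7 other genes often used as markers in fission yeast, lys1 was lower in fft3∆ and the others did not pass, a count of 1 of 7 where 6.09% of all genes were lower. At an unadjusted p under 0.05 there were 3 of 7, where 18.8% of all genes passed. The difference was negative for all 7, with a median of −0.51 against −0.08 over all genes. lys1, for lysine synthesis, had 1.56 and 0.90 in fft3∆ series 2 and 3, 3.32 in UV21, and 3.00, 2.98 and 3.34 in WT series 1, 2 and 3. The difference of −1.87 ± 0.24 (SE) had a limma adjusted p of 0.0076, which became 0.0552 without WT series 3. UV21 was within the WT range here, whereas at ura4 it was below every WT array. For UV21 minus WT, 0 of 7 passed.

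his2, for histidine synthesis, had 0.91 and −1.55 in fft3∆ series 2 and 3, 0.04 in UV21, and 0.97, 1.17 and 1.64 in WT. Its 2 fft3∆ arrays lay far apart, as at ura4. The difference of −1.57 had a limma adjusted p of 0.236, and of 0.359 to 0.464 with 1 WT array left out. It was −2.80 without fft3∆ series 2 and −0.34 without fft3∆ series 3. The systematic names of his2 (SPBC1711.13) and mat3-Mc (SPBC1711.02) share a prefix, so his2 may lie near the chromosome 2 region and may not be independent of it. The other 5 marker genes, ade6, leu1, his1, his3 and arg3, had WT means of 0.09 to 0.51.

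**Figure D4:**
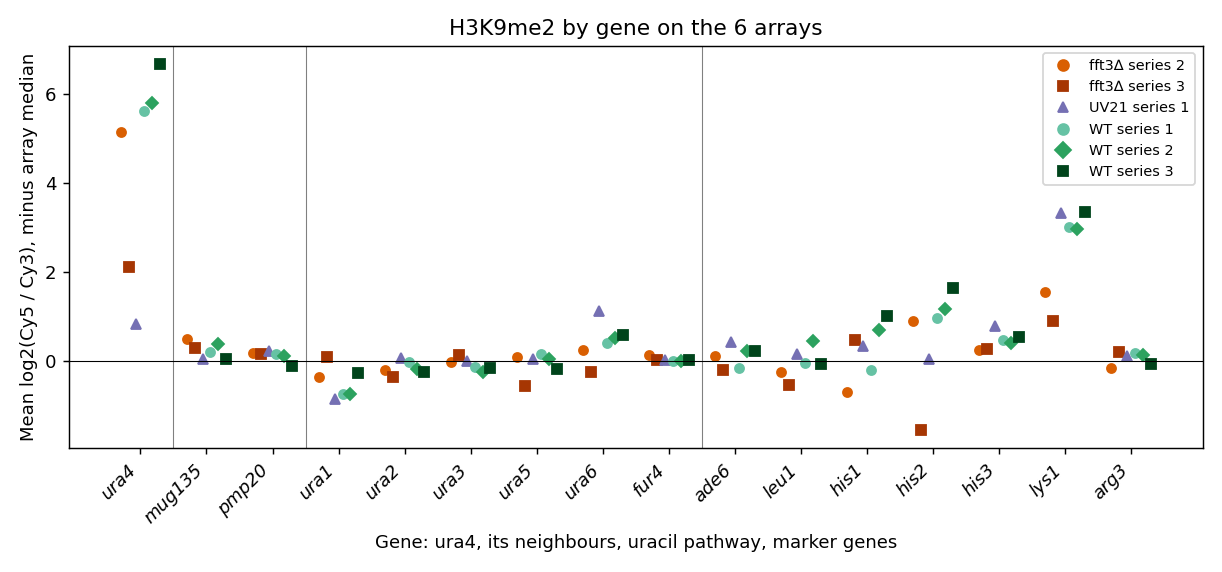
Mean log2 ratio (minus the array median) over the usable probes of each gene on the 6 H3K9me2 arrays, for ura4, its 2 measured neighbours, 6 uracil pathway genes and 7 marker genes, 1 point per array. ura4 spans 0.85 to 6.66, lys1 spans 0.90 to 3.34, and every uracil pathway gene lies between −0.85 and 1.12.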

How the data were processed

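The members, lists and comparison region were chosen with earlier results of these data known. Per the file headers, the authors' files hold each spot's Cy5 and Cy3 intensity from Agilent Feature Extraction, a log10 ratio, and flags for saturation, non-uniformity and signal above background. The deposited value table holds the linear ratio of processed Cy5 to Cy3 (correlation 1.0 with the scanner values on every array) without centring. Per the labels, Cy5 was ChIP and Cy3 whole-cell extract DNA on all 7 arrays, with no dye swap and random-primed amplification, which can distort single fragments. Extraction used 1 protocol for series 3 and another for the other arrays. The software version was 11.5.1.1 for series 3, 10.7.3.1 for fft3∆ series 2 and 12.0.3.1 for the rest. The fft3∆ minus WT differences within the protocol of series 1 and 2 therefore still cross software versions.

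From the processed intensities, log2(Cy5/Cy3) minus the array's median over all probes was computed. A probe was usable (33704 of 41551) if each of the 6 H3K9me2 arrays gave a uniform spot whose Cy3 signal exceeded background. limma (version 3.58.1, R 4.3.3) was fitted to all of them with group as the only term and, separately, to 4775 genes with at least 2 usable probes, with Benjamini-Hochberg adjustment at 0.05. UV21's single array was assumed to vary like the others. On simulated data for fft3∆ minus WT over 33704 probes, 44 of 100 probes changed by 2 (log2) and 78 of 100 changed by 4 were recovered, with 6 false calls. The number of arrays limits precision.

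Every ura4 and flank probe is named; in the region, the probe nearest ura4, the highest, the lowest and those with Cy3 under 10% on some arrays; and the 5 windows nearest ura4. Other items were named after their values were seen. Gene names came from the assembly ASM294v3, placed on each arm by GC content against Cy3 (correlation 0.242 to 0.29). Probe sequences were not used here. ura7, fur1 and 2 neighbours of ura4 had no measured gene. The alternatives tried are given in the closing section.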

Additional observations from a re-analysis of the deposited data

How the results depend on the processing

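The flank and region differences kept their direction under all 16 alternatives each. fft3∆ minus WT ran from −0.51 to −0.09 in the lower flank, −0.97 to −0.34 in the upper flank and −3.67 to −0.78 in the region, and 3 arrays against 2 leave these tests unable to pass 0.05. At ura4, fft3∆ minus WT was −2.39, and −4.54 within the extraction protocol of series 3 and −0.56 within that of series 1 and 2; leaving out 1 array gave −3.90 (without fft3∆ series 2) to −0.88 (without fft3∆ series 3). UV21 minus WT at ura4 was −5.18, and −5.75 with normexp. Normexp was planned on mean signals and run on median signals, the column the files hold. Leaving out saturated spots, the first ura4 probe or adding the next probe, all chosen after seeing the data, gave −2.58 to −2.07 for fft3∆ and −5.40 to −4.86 for UV21.

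Probe calls in fft3∆ minus WT numbered 712. They were 437 with normexp, 459 with non-uniform features kept and 453 with the extraction protocol as a block, and 0 (without WT series 1 or 3) to 3774 (without fft3∆ series 2) with 1 array left out. UV21 minus WT gave 0 (970 at an unadjusted p under 0.05), and 0 to 79 with 1 array left out, the 79 without either fft3∆ array. The cause was not tested. Series numbers were not shown to pair the arrays: the correlations of deviations were 0.013 and 0.011, which say little because the deviations of 2 fft3∆ arrays mirror each other, and the 2 arrays of series 2 did share a loss of Cy3 near mat3-Mc. With the series number as a replicate block the calls were 482 and 0, and the differences were −0.21 (lower flank), −0.55 (upper flank), −2.23 (region), −2.60 (ura4, fft3∆) and −4.77 (ura4, UV21). Saturation in WT series 3 limits how high its ura4 ratios could read.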
